A study of Mus musculus with 20 samples.

Results

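The 10 genes described here encode the enzymes that make and break down prostaglandins, thromboxane and leukotrienes: Ptgs1, Ptgs2, Ptges, Hpgds, Tbxas1, Hpgd, Alox5, Alox5ap, Lta4h and Ltc4s. They were taken by symbol from the deposited count table, where they are 10 of 23329 symbols, and all 10 were among the 15363 genes that passed the filter on low counts. Levels are given as counts per 1000000 counts of the library (CPM, with libraries scaled by the trimmed mean of M-values), and each is a mean ± SD over the libraries of a group unless single libraries are listed.

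The series holds 20 libraries of polyadenylated RNA from C57BL/6 mice in 6 groups of sorted myeloid cells. Tumour cells were split by lineage into microglia (MG), the resident macrophages of the brain, and bone marrow-derived macrophages (BMDM). GL261 BMDM and GL261 MG came from tumours of GL261, a mouse glioma line, and were paired over 3 tumours numbered 80766, 80767 and 80769. GEMM BMDM and GEMM MG came from a model in which 300000 DF1 chicken cells producing RCAS-PDGFB-HA and RCAS shP53 virus, mixed 1:1, were injected into the brain of Flt3:Cre Rosa26:mTmG mice at 6 weeks of age (5 to 6 weeks is given for the intracranial injections as a whole), and were paired over 3 tumours numbered 68702, BB30101 and BB30105. The tumour cells were CD45+ CD11b+ Ly6C- Ly6G-, with GFP+ TdTomato- for BMDM and GFP- TdTomato+ for MG, so the split by lineage rests on Flt3-driven Cre in blood cell precursors. Cells from outside tumours were Ly6C-high blood monocytes (n = 5) and microglia of normal brain (n = 3). Every sample carries the same protocol text. How GL261 tumours were made, whether their hosts carried the reporter, and the ages and gates of the mice that gave blood and normal brain are not stated in the labels. Values below are listed in the order of the tumour numbers above, of 64817 to 64821 for monocytes and of 67572 to 67574 for normal MG. Nothing beyond these numbers says that libraries of a group came from separate animals, and p-values measure the spread between these libraries only.

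Arachidonic acid, cut from membrane phospholipids, feeds both branches of this pathway. Cyclooxygenases turn it into prostaglandin H2, which terminal synthases convert to prostaglandin E2, prostaglandin D2 or thromboxane A2, while 5-lipoxygenase and its activating protein make leukotriene A4, the precursor of leukotriene B4 and the cysteinyl leukotrienes. Microglia are known for high expression of the constitutive cyclooxygenase Ptgs1 and of the prostaglandin D2 synthase Hpgds, and Ptgs2 is the inducible cyclooxygenase of inflammation.

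The start regions of 3 members are shown because the results turn on them: Ptgs2 was the member that was higher in all 4 comparisons of a tumour group with normal MG or monocytes, and Ptgs1 and Hpgds were the prostanoid enzymes that separated microglia from monocytes most widely. Each sequence runs from 250 bases before to 50 bases after the RefSeq start (build GRCm38.p6, 5′ to 3′ on the gene's strand), and 9 of the 10 members had an entry. Capitals mark matches to TTNCGNAA (C/EBP site), TGACG (CRE half-site), CACGTG (E-box) and GAGGAAG (PU.1 core), searched on both strands.
Ptgs2 (chr1:150099781-150100080, plus strand): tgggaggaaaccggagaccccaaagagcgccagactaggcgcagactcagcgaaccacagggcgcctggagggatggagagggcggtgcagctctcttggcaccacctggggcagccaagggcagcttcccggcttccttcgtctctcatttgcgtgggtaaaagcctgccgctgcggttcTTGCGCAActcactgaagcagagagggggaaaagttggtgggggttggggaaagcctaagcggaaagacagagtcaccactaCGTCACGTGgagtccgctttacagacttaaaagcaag
Ptgs1 (chr2:36230176-36230475, plus strand): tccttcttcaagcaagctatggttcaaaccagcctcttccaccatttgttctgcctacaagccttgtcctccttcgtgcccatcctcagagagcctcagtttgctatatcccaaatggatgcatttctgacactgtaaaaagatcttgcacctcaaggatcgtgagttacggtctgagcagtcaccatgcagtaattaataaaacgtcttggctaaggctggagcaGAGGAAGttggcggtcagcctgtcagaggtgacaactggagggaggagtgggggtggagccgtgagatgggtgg
Hpgds (chr6:65144681-65144980, minus strand): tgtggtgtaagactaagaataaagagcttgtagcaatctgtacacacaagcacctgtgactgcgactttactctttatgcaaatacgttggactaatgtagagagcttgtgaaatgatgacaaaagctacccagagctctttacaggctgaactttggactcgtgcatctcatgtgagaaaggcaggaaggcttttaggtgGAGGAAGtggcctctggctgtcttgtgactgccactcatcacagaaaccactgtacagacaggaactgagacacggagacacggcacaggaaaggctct
In Ptgs2 the C/EBP match began 69 bases before the start, and the run of capitals after the start joins a CRE half-site on the minus strand with an overlapping E-box. The C/EBP letters were found in 2.46% of 27025 promoters of the same length, the CRE half-site in 21.0% and the E-box in 7.24%. Ptgs1 and Hpgds each held the PU.1 core on their own strand, 24 and 49 bases before the start, and Tbxas1 and Ltc4s held it on the opposite strand, against 13.5% of all promoters. The letters TATAAA, present in 14.2% of promoters, were found in Tbxas1 and Hpgd, and the NF-kB site, present in 1.17%, in none of the 9. These matches describe letters in this window and nothing of what binds there.

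Total counts ran from 5077787 to 7801073 per monocyte library and from 18113450 to 36297826 in the other groups. Summed over 10 microglia markers such as P2ry12 and Tmem119, levels were 852 to 1859 CPM in GL261 BMDM, 2354 to 8872 in GL261 MG, 3761 to 7909 in GEMM BMDM, 15767 to 25286 in GEMM MG, 794 to 1262 in monocytes and 36879 to 41918 in normal MG, so GL261 MG overlapped GEMM BMDM. Both libraries of GL261 tumour 80769 stood apart, with the lowest microglia sum of their groups and with border-associated macrophage markers at 3810.4 CPM in BMDM and 764 in MG. The border-associated list shares F13a1 with the monocyte or BMDM list and summed to 2067 to 2290 CPM in monocytes. The 10 monocyte or BMDM markers, such as Ccr2, summed to 1093 to 4368 CPM in GL261 BMDM and 510 to 1094 in GL261 MG. Sums were 915 to 1698 in GEMM BMDM, 134 to 267 in GEMM MG, 9297 to 11475 in monocytes and 19.9 to 35.3 in normal MG. In both GL261 groups 80769 had the highest sum. Their part in the MG values was not tested. GEMM BMDM 68702 had 2015 CPM of 10 neutrophil markers and 212 of 5 eosinophil markers, against at most 117 and 14.9 in the other GEMM BMDM libraries. Monocyte libraries held 1496 to 23011 CPM of neutrophil and 1037 to 2240.1 CPM of 8 platelet markers, and the rRNA precursor Rn45s made up 13.5% of 64820 and 14.3% of 64821. Xist was at 142 to 645 CPM in monocytes and at most 2.88 CPM elsewhere, so sex cannot be told apart from cell type in any comparison with monocytes. In these bulk libraries, fewer cells of a type and less RNA per cell cannot be told apart.

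**Figure D1:**
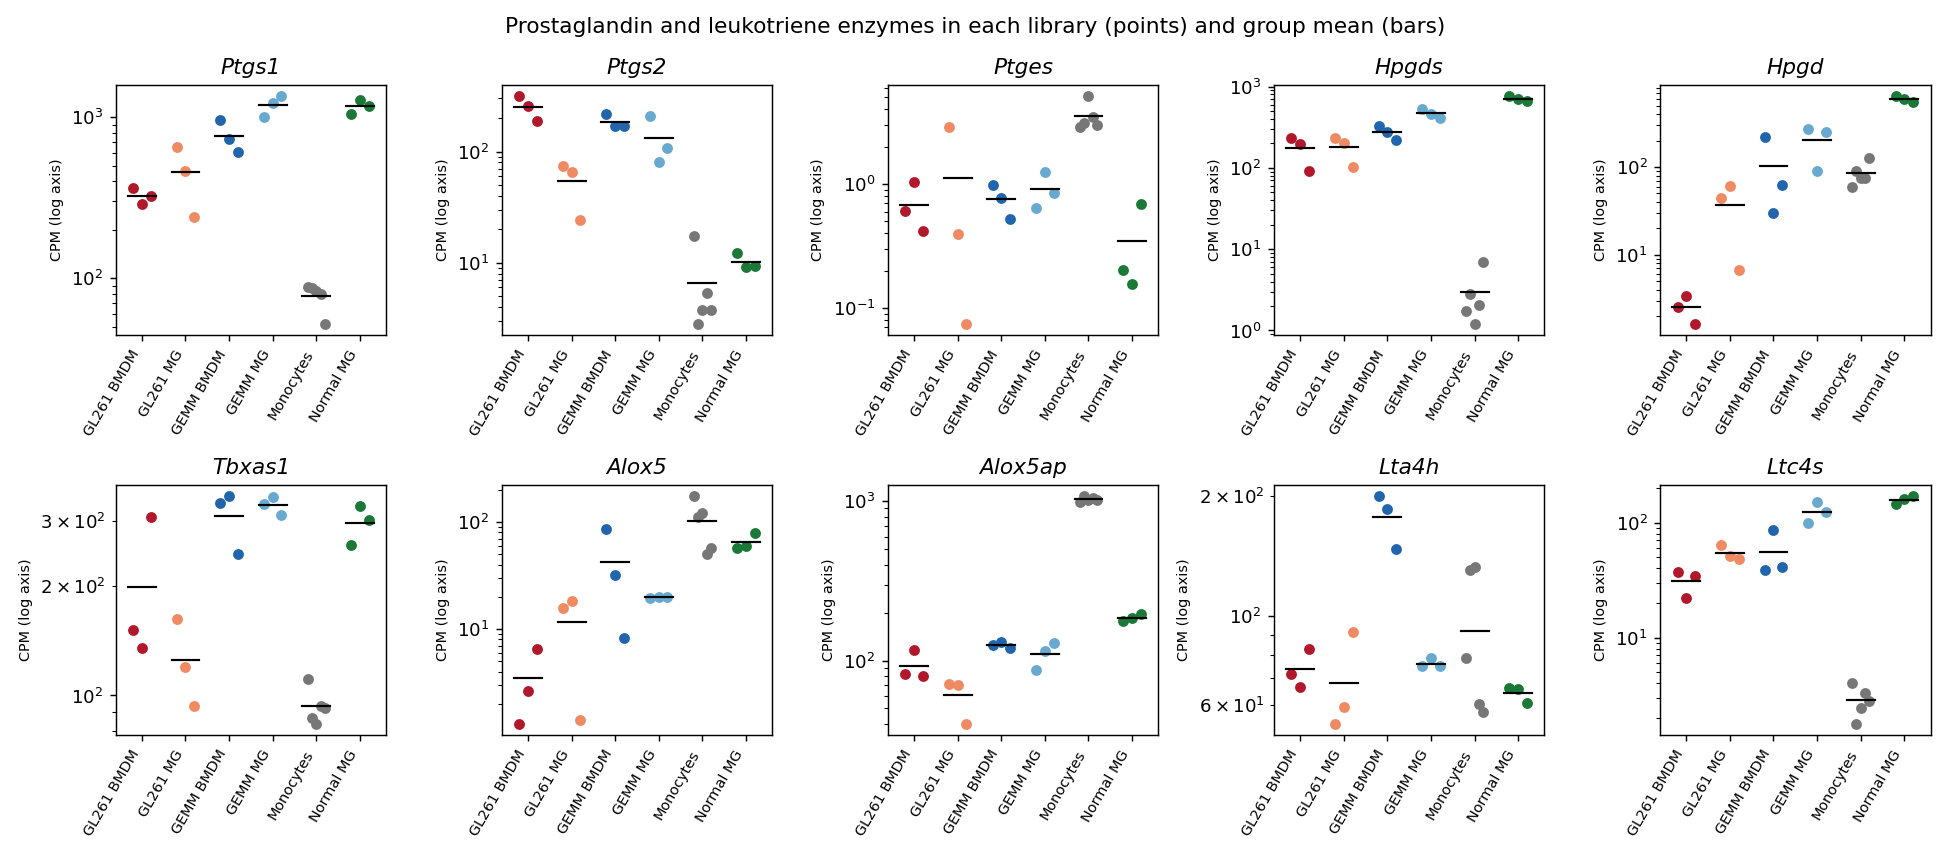
CPM (log axis, 1 panel per gene) of the 10 enzymes in every library, with a bar at the group mean. Ptgs2 lies above 24 CPM in all 12 tumour libraries and at or below 17.3 CPM in monocytes and normal MG, while Alox5ap is highest in the 5 monocyte libraries.

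Microglia of both tumour models were first set against microglia of normal brain, which asks how these enzymes differ between microglia of a glioma and of healthy brain. In GL261 MG, Ptgs1, Hpgds, Tbxas1, Hpgd, Alox5, Alox5ap and Ltc4s fell, by 2.37-fold for Tbxas1 to 16.1-fold for Hpgd, and Ptgs2 rose 5.33-fold (edgeR quasi-likelihood test, adjusted p under 0.05 over all genes tested). That made 7 lower and 1 higher of the 10 enzymes. Over all genes tested, 30.6% were higher and 27.2% lower in that comparison, and the median log2 fold change was -1.46 over the 10 enzymes and 0.01 over all genes. In GEMM MG, Ptgs2 was higher, Alox5ap was lower and the other 8 did not pass, against 23% of all genes higher and 20.9% lower, with medians of -0.16 and -0.02. Groups did not overlap for 8 of the enzymes in the GL261 comparison and for 6 in the GEMM comparison, against 66.5% and 62.2% of all genes. Ptgs2 and Alox5ap passed in the same direction in both models, which share their 3 normal MG libraries. The sum of microglia markers moved with these comparisons, at 2354 to 8872 CPM in GL261 MG and 15767 to 25286 CPM in GEMM MG, against 36879 to 41918 CPM in normal MG, and its part in them was not tested.

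Tumour BMDM were set against blood monocytes, their circulating precursors. Ptgs1, Ptgs2, Hpgds, Tbxas1 and Ltc4s rose and Ptges and Alox5ap fell in BMDM of both models, which share the 5 monocyte libraries. Lta4h rose in GEMM BMDM, and Hpgd and Alox5 fell in GL261 BMDM. That made 5 higher and 4 lower in GL261 BMDM, against 34.1% and 28.9% of all genes, with medians of 0.38 over the enzymes and 0.06 over all genes. In GEMM BMDM 6 were higher and 2 lower, against 31.6% and 25.7% of all genes, with medians of 1.34 and 0.08. Groups did not overlap for 9 of the enzymes in GL261 BMDM and for 8 in GEMM BMDM, against 56.6% and 51.9% of all genes.

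Between lineages within a tumour model, 3 of the enzymes passed in GL261 and 2 in GEMM. GL261 BMDM had more Ptgs2 and Alox5ap and less Hpgd than GL261 MG, against 10.7% of all genes higher and 6.81% lower. GEMM BMDM had more Lta4h and less Ltc4s than GEMM MG, against 12.7% higher and 8.1% lower. Medians over the enzymes were -0.25 in GL261 and -0.19 in GEMM, beside -0.08 and 0.01 over all genes. Groups did not overlap for 4 enzymes in each model, or 3 in GL261 without TMM scaling, against 31.4% of all genes in GL261 and 39.9% in GEMM. No enzyme passed in both models in the edgeR fit of all libraries with TMM scaling. With DESeq2, with another scaling (RLE) or with tumour as a replicate block, Ltc4s passed as lower in BMDM than in MG of both models. The difference between the lineage differences, GL261 minus GEMM, passed for 0 of the 10 enzymes in edgeR, where 0.605% of all genes were higher and 1.02% lower. At an unadjusted p under 0.05 it held for 5 of them (Ptgs2, Hpgd, Tbxas1, Alox5 and Lta4h), and DESeq2 called 1, Hpgd.

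Between tumour models, no enzyme passed as higher in GL261 than in GEMM cells of the same lineage. GL261 MG had less Ptgs1, Hpgds, Tbxas1, Hpgd, Alox5ap and Ltc4s than GEMM MG, 6 of the 10, against 15.5% of all genes lower and 18.8% higher, with medians of -1.24 over the enzymes and 0.04 over all genes. GL261 BMDM had less Ptgs1, Hpgd, Alox5, Lta4h and Ltc4s than GEMM BMDM, 5 of the 10, against 9.46% lower and 10.2% higher, with medians of -0.74 and -0.04. Tumour model and all that differed between the hosts and preparations of these tumours cannot be told apart. Groups did not overlap for 8 enzymes in MG and for 6 in BMDM, or 5 in each without TMM scaling, against 46.9% and 36.6% of all genes. Outside tumours, monocytes had more Ptges and Alox5ap and less Ptgs1, Hpgds, Hpgd, Tbxas1 and Ltc4s than normal MG, against 30.4% of all genes higher and 32.4% lower, and 7 enzymes did not overlap, against 61.4% of all genes.

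**Figure D2:**
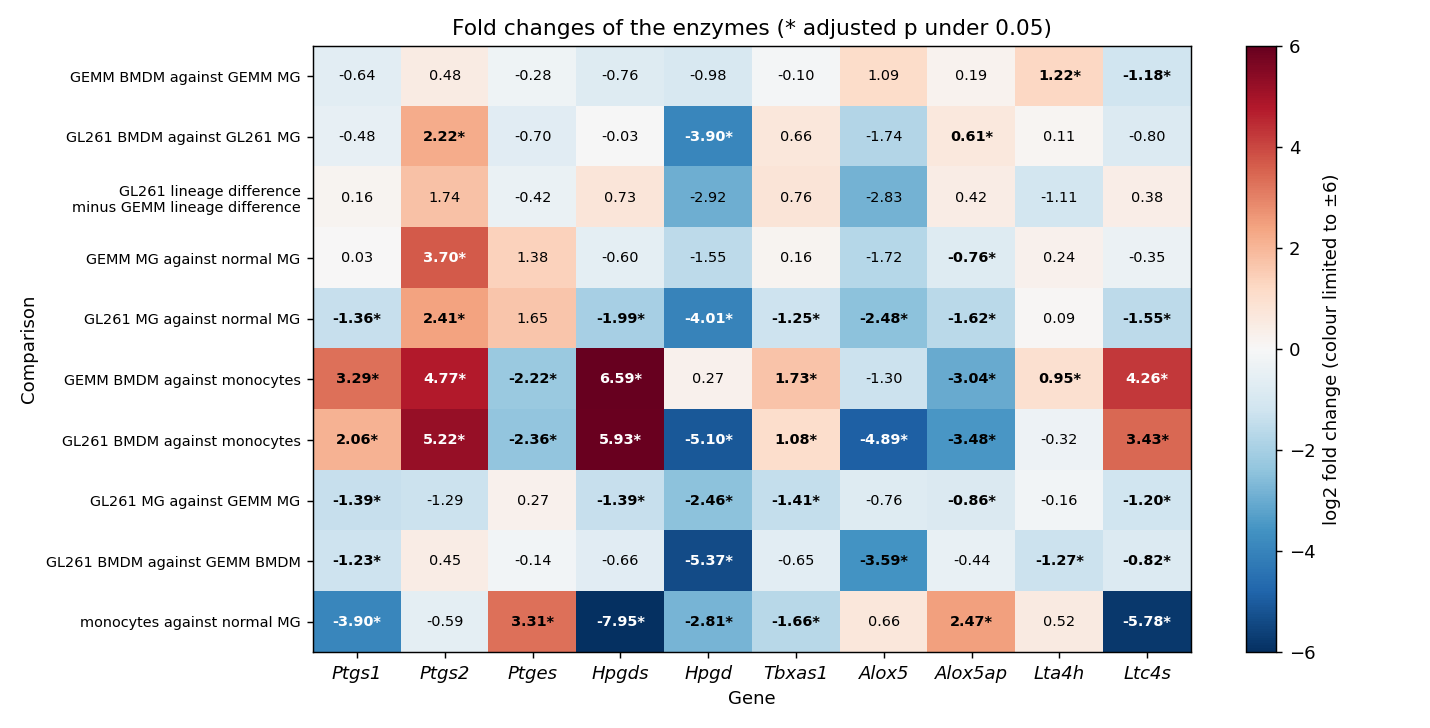
log2 fold change of each enzyme (columns) in each of the 10 comparisons (rows), first-named group over the other, with an asterisk where the edgeR adjusted p was under 0.05. Hpgds and Ltc4s have large positive values over monocytes, and the row of GL261 MG against normal MG is negative for 7 enzymes that passed.

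Ptgs1 encodes cyclooxygenase-1, the constitutive enzyme (chr2:36230426-36252272, plus strand, GRCm38). It was at 365, 291 and 324 CPM in GL261 BMDM and 659, 467 and 239 CPM in GL261 MG. GEMM BMDM had 961, 729 and 611 CPM and GEMM MG 1007, 1220.5 and 1351 CPM. Monocytes were at 88.1, 87.3, 83.0, 79.8 and 52.1 CPM and normal MG at 1054, 1278 and 1174 CPM. Every monocyte library was below every other library, GEMM MG overlapped normal MG, and the GL261 libraries were below all normal MG libraries. Against normal MG, Ptgs1 was 2.57-fold lower (log2 -1.36 ± 0.28, edgeR adjusted p = 0.000479) in GL261 MG, while GEMM MG gave log2 0.03 ± 0.28, edgeR adjusted p = 0.948. Against monocytes it was 4.18-fold higher (log2 2.06 ± 0.24, edgeR adjusted p = 1.07e-06) in GL261 BMDM and 9.81-fold higher (log2 3.29 ± 0.25, edgeR adjusted p = 6.88e-09) in GEMM BMDM. GL261 cells had less of it than GEMM cells in both lineages, log2 -1.39 ± 0.28, edgeR adjusted p = 0.00111 in MG and log2 -1.23 ± 0.28, edgeR adjusted p = 0.00504 in BMDM. The lineage difference did not pass in GL261 (log2 -0.48 ± 0.28, edgeR adjusted p = 0.244) or GEMM (log2 -0.64 ± 0.28, edgeR adjusted p = 0.115). Tumour 80769 had more in BMDM than in MG, unlike the other GL261 tumours, and without its MG library the GL261 difference passed (log2 -0.77, edgeR adjusted p = 0.0243). Ptgs1 is also a platelet gene. Monocyte 64821, lowest in Ptgs1, was lowest in platelet markers (1037 CPM), but 64820, next lowest in Ptgs1, had 2099 CPM of them, below only 64817 (2240 CPM). The part of platelet RNA in the monocyte values was not tested.

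Ptgs2 encodes cyclooxygenase-2, the isoform induced by cytokines and growth factors (chr1:150100031-150108227, plus strand). GL261 BMDM had 314, 259 and 188 CPM and GL261 MG 74.2, 65.1 and 24.1 CPM. It was at 217, 168 and 170.5 CPM in GEMM BMDM and 211, 81.0 and 107 CPM in GEMM MG. Monocytes had 17.3, 2.83, 3.76, 5.36 and 3.75 CPM and normal MG 12.2, 9.12 and 9.32 CPM. All 12 tumour libraries were above all 8 libraries from outside tumours, and in 6 of 6 tumours BMDM had more than MG of the same tumour, by 1.03 to 7.83 times. Without TMM scaling this held in 5 of 6, with 182 CPM in BMDM and 186 CPM in MG of tumour 68702. Against normal MG, Ptgs2 was 13.005-fold higher (log2 3.70 ± 0.55, edgeR adjusted p = 4.03e-05) in GEMM MG and 5.33-fold higher (log2 2.41 ± 0.53, edgeR adjusted p = 0.000793) in GL261 MG. Against monocytes it was 37.4-fold higher (log2 5.22 ± 0.50, edgeR adjusted p = 8.45e-08) in GL261 BMDM and 27.3-fold higher (log2 4.77 ± 0.49, edgeR adjusted p = 2.66e-07) in GEMM BMDM. Monocyte 64817 weighed on these values: without it they were log2 6.03 for GL261 BMDM and 5.58 for GEMM BMDM, and monocytes fell below normal MG (log2 -1.40, edgeR adjusted p = 0.00579, against log2 -0.59 ± 0.48, edgeR adjusted p = 0.296 with it). The lineage difference was 4.66-fold higher (log2 2.22 ± 0.52, edgeR adjusted p = 0.00612) for GL261 BMDM over GL261 MG and did not pass in GEMM (log2 0.48 ± 0.49, edgeR adjusted p = 0.539), and the difference between the models did not pass (log2 1.74 ± 0.70, edgeR adjusted p = 0.241). The GL261 difference held without the BMDM library of tumour 80769 (log2 2.39, edgeR adjusted p = 0.00696) and without its MG library (log2 1.88, edgeR adjusted p = 0.0231). Between models the difference did not pass in MG (log2 -1.29 ± 0.50, edgeR adjusted p = 0.0556) or BMDM (log2 0.45 ± 0.49, edgeR adjusted p = 0.555).

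Ptgs2 is an immediate early gene, and cells were dissociated from tissue before sorting, so a list of 16 stress and immediate early genes such as Fos, Jun, Egr1 and Hspa1a was summed. The sum was 8916 to 10284 CPM in GL261 BMDM, 5679 to 11760 in GL261 MG, 11298 to 16681 in GEMM BMDM, 10242 to 17117 in GEMM MG, 3880.0 to 6618 in monocytes and 31927 to 39665 in normal MG. Stress sums were highest in normal MG, whose Ptgs2 was at most 12.2 CPM. Of the 16 genes, 10 were lower and 1 higher in GEMM MG than in normal MG, against 20.9% and 23% of all genes. In GL261 MG 13 were lower and 1 higher, against 27.2% and 30.6% of all genes. The higher gene was Nr4a1 in both (log2 1.69 ± 0.27, edgeR adjusted p = 7.48e-05 for GEMM, and log2 0.74 ± 0.26, edgeR adjusted p = 0.0223 for GL261). In both GL261 groups the library with the lowest stress sum (80769) had the least Ptgs2, while 80766 and 80767 ran in the reverse order. In both GEMM groups the library with the highest sum (68702) had the most Ptgs2. The monocyte library with the highest sum (64817) also had the most Ptgs2 of its group. In BMDM against monocytes, 13 stress genes were higher and 2 lower in GL261, against 34.1% and 28.9% of all genes. In GEMM 12 were higher and 0 lower, against 31.6% and 25.7% of all genes. The part of the stress genes in the Ptgs2 differences of either lineage was not tested.

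**Figure D3:**
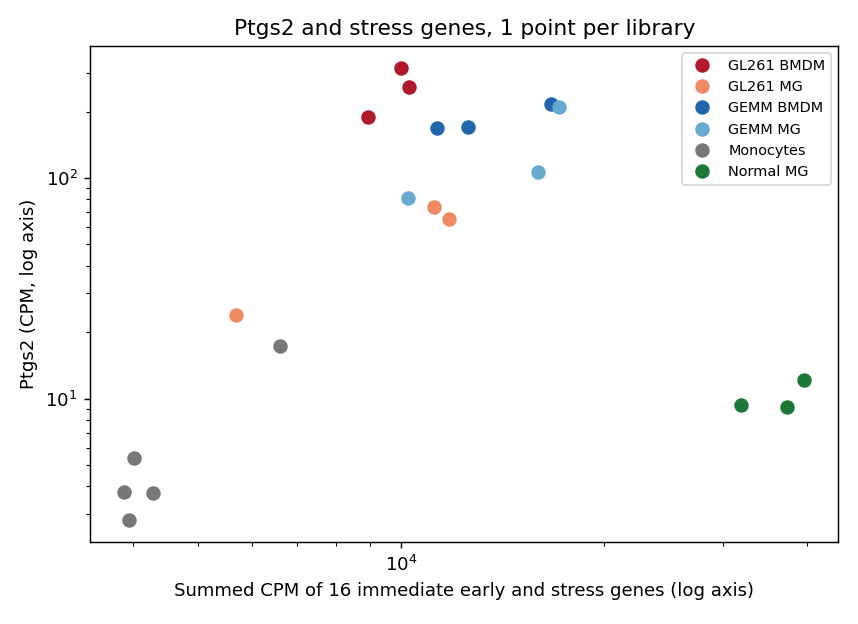
Ptgs2 (CPM, log axis) against the summed CPM of 16 immediate early and stress genes (log axis), 1 point per library. The 3 normal MG libraries lie farthest right, at sums of 31927 CPM or more, with Ptgs2 between 9.12 and 12.2 CPM.

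Per kilobase of exon, Ptgs1 stayed above Ptgs2 in every group. Ptgs2 made up 39.4 ± 5.52% of the summed cyclooxygenase CPM per kilobase in GL261 BMDM and 9.06 ± 1.38% in GL261 MG, with 17.2 ± 1.69% in GEMM BMDM and 8.90 ± 5.37% in GEMM MG, 6.36 ± 4.61% in monocytes and 0.746 ± 0.195% in normal MG. The lowest GL261 BMDM library (33.0%) was above the highest library of any other group (19.1%, GEMM BMDM), and all tumour groups were above normal MG.

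Ptges encodes the inducible microsomal prostaglandin E synthase (chr2:30889471-30929863, minus strand) and was low in all groups. It averaged 0.684 ± 0.314 CPM in GL261 BMDM, 1.11 ± 1.53 in GL261 MG, 0.755 ± 0.229 in GEMM BMDM, 0.911 ± 0.312 in GEMM MG, 3.52 ± 0.913 in monocytes and 0.348 ± 0.293 in normal MG. The 5 monocyte libraries, at 2.89, 3.12, 5.10, 3.50 and 3.00 CPM on 16 to 38 reads each, were all above every other library, with GL261 MG 80766 next at 2.87 CPM, but that library overlapped monocytes without TMM scaling (3.37 CPM, against 2.87 CPM or more in monocytes). Ptges was 5.13-fold lower (log2 -2.36 ± 0.80, edgeR adjusted p = 0.0154) in GL261 BMDM and 4.65-fold lower (log2 -2.22 ± 0.78, edgeR adjusted p = 0.0215) in GEMM BMDM than in monocytes, and 9.94-fold higher (log2 3.31 ± 0.84, edgeR adjusted p = 0.00217) in monocytes than in normal MG, where 4 to 20 reads lay behind each value. Without normal MG 67574 the last value was log2 4.25. GL261 MG against normal MG did not pass (log2 1.65 ± 0.84, edgeR adjusted p = 0.101) and turned direction without GL261 MG 80766 (log2 -0.58, edgeR adjusted p = 0.524). The calls of both BMDM comparisons were lost on leaving out single BMDM libraries, with edgeR adjusted p up to 0.0608 in GL261 (without 80769) and 0.0751 in GEMM (without BB30105).

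Hpgds encodes the hematopoietic prostaglandin D2 synthase (chr6:65117293-65144908, minus strand). GL261 BMDM were at 236, 199 and 90.6 CPM and GL261 MG at 230.5, 204 and 102 CPM. GEMM BMDM had 331, 279.9 and 217 CPM and GEMM MG 535, 463 and 406 CPM. It was at 1.76, 2.83, 1.21, 2.06 and 6.93 CPM in monocytes, on 9 to 37 reads a library, and at 758, 709 and 662 CPM in normal MG. Normal MG libraries were all above GEMM MG, GEMM MG all above GEMM BMDM, and every tumour library above the highest monocyte library, at 6.93 CPM. Hpgds was 61.1-fold higher (log2 5.93 ± 0.42, edgeR adjusted p = 3.16e-09) in GL261 BMDM and 96.3-fold higher (log2 6.59 ± 0.43, edgeR adjusted p = 1.23e-09) in GEMM BMDM than in monocytes. It was 3.97-fold lower (log2 -1.99 ± 0.41, edgeR adjusted p = 0.000533) in GL261 MG than in normal MG and 2.62-fold lower (log2 -1.39 ± 0.41, edgeR adjusted p = 0.0137) in GL261 MG than in GEMM MG. GEMM MG against normal MG did not pass (log2 -0.60 ± 0.40, edgeR adjusted p = 0.237), but passed with only those libraries in the fit (log2 -0.57, adjusted p = 0.00617). GEMM BMDM against GEMM MG did not pass either (log2 -0.76 ± 0.40, edgeR adjusted p = 0.197), and passed with tumour as a replicate block (log2 -0.77, adjusted p = 0.00249); the BMDM value was 0.534 to 0.619 of the MG value in all 3 GEMM tumours and 0.892 to 1.02 in the GL261 tumours. Mast cells also use Hpgds: mast cell and basophil markers summed to 62.6 to 200.4 CPM in GL261 BMDM, 44.7 to 103 in GL261 MG, 161 to 553 in GEMM BMDM, 4.12 to 91.6 in GEMM MG, 51.2 to 404 in monocytes and 1.57 to 2.64 in normal MG. Their part in the Hpgds values was not tested.

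Tbxas1 encodes thromboxane A synthase, which makes the platelet agonist thromboxane A2 (chr6:38875404-39084585, plus strand). Its levels were 151, 135 and 308 CPM in GL261 BMDM and 162, 119 and 93.9 CPM in GL261 MG. In GEMM BMDM they were 336, 352 and 244 CPM and in GEMM MG 335, 349 and 313 CPM. Monocytes had 111, 87.0, 83.8, 93.8 and 92.6 CPM and normal MG 259, 329.9 and 301 CPM. GEMM MG, GEMM BMDM and normal MG overlapped, GL261 MG were below all of them, and GL261 BMDM 80769 stood at 308 CPM beside 135 and 151 in the other GL261 BMDM libraries. Tbxas1 was 2.37-fold lower (log2 -1.25 ± 0.26, edgeR adjusted p = 0.000482) in GL261 MG than in normal MG, and 2.66-fold lower (log2 -1.41 ± 0.26, edgeR adjusted p = 0.000514) than in GEMM MG. Over monocytes it was 2.11-fold higher (log2 1.08 ± 0.22, edgeR adjusted p = 0.000433) in GL261 BMDM and 3.31-fold higher (log2 1.73 ± 0.22, edgeR adjusted p = 3.82e-06) in GEMM BMDM. GL261 BMDM against GEMM BMDM did not pass (log2 -0.65 ± 0.25, edgeR adjusted p = 0.0804), and passed without 80769 (log2 -1.12, edgeR adjusted p = 0.00179). The lineage difference did not pass in GL261 (log2 0.66 ± 0.25, edgeR adjusted p = 0.0808) or GEMM (log2 -0.10 ± 0.25, edgeR adjusted p = 0.827).

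Hpgd encodes 15-hydroxyprostaglandin dehydrogenase (chr8:56294585-56321043, plus strand), which begins the breakdown of prostaglandin E2. It was at 2.52, 3.35 and 1.63 CPM in GL261 BMDM and 44.1, 60.9 and 6.73 CPM in GL261 MG. GEMM BMDM had 219, 30.1 and 61.8 CPM and GEMM MG 270.0, 90.7 and 252 CPM. Monocytes were at 60.02, 90.0, 75.9, 75.6 and 128 CPM and normal MG at 644, 607 and 549 CPM. Normal MG were above, and GL261 BMDM below, every other library. In 6 of 6 tumours BMDM had less Hpgd than MG, by ratios of 0.0550 to 0.811. Hpgd was 14.9-fold lower (log2 -3.90 ± 0.75, edgeR adjusted p = 0.00154) in GL261 BMDM than in GL261 MG, and this held without either library of tumour 80769 (log2 -3.66, edgeR adjusted p = 0.00988 without its BMDM; log2 -4.38, edgeR adjusted p = 0.000246 without its MG). It was 34.4-fold lower (log2 -5.10 ± 0.77, edgeR adjusted p = 1.68e-05) in GL261 BMDM than in monocytes, 16.1-fold lower (log2 -4.01 ± 0.72, edgeR adjusted p = 0.000139) in GL261 MG than in normal MG, and 5.49-fold lower (log2 -2.46 ± 0.68, edgeR adjusted p = 0.00945) in GL261 MG than in GEMM MG.

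In GEMM cells the lineage difference of Hpgd did not pass (log2 -0.98 ± 0.65, edgeR adjusted p = 0.312), and neither did the GL261 lineage difference minus the GEMM one (log2 -2.92 ± 0.96, edgeR adjusted p = 0.138), which DESeq2 called (log2 -2.88, adjusted p = 0.0297). GEMM BMDM 68702, the library with the most neutrophil and eosinophil markers and also the most microglia markers of its group (7909 CPM), had 219 CPM, beside 30.1 and 61.8 in the others. Without it the GEMM difference passed (log2 -2.15, edgeR adjusted p = 0.0285). Hpgd was 41.5-fold lower (log2 -5.37 ± 0.80, edgeR adjusted p = 0.000177) in GL261 BMDM than in GEMM BMDM, or log2 -4.20 without 68702 (edgeR adjusted p = 0.000639). GEMM BMDM did not pass against monocytes (log2 0.27 ± 0.57, edgeR adjusted p = 0.706), a value that turned direction without 68702 (log2 -0.90, edgeR adjusted p = 0.204), and GEMM MG did not pass against normal MG (log2 -1.55 ± 0.65, edgeR adjusted p = 0.0625), although their libraries did not overlap. DESeq2 called GEMM MG lower than normal MG (adjusted p = 0.0370), and so did edgeR with only those libraries in the fit (adjusted p = 0.0113).

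Set against each other per kilobase within each library, RNA of the inducible cyclooxygenase Ptgs2 and of Hpgd gave a ratio that differed widely between groups. The ratio of Ptgs2 to Hpgd was 38.9 ± 9.25 in GL261 BMDM and 0.775 ± 0.479 in GL261 MG, then 1.15 ± 0.856 in GEMM BMDM and 0.257 ± 0.0901 in GEMM MG, 0.0345 ± 0.0405 in monocytes and 0.00623 ± 0.000710 in normal MG. Every GL261 BMDM library (28.4 or more) lay above every other library (2.06 or less), and every tumour library lay above every library from outside tumours. These are ratios of RNA and carry no measure of enzyme activity.

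**Figure D4:**
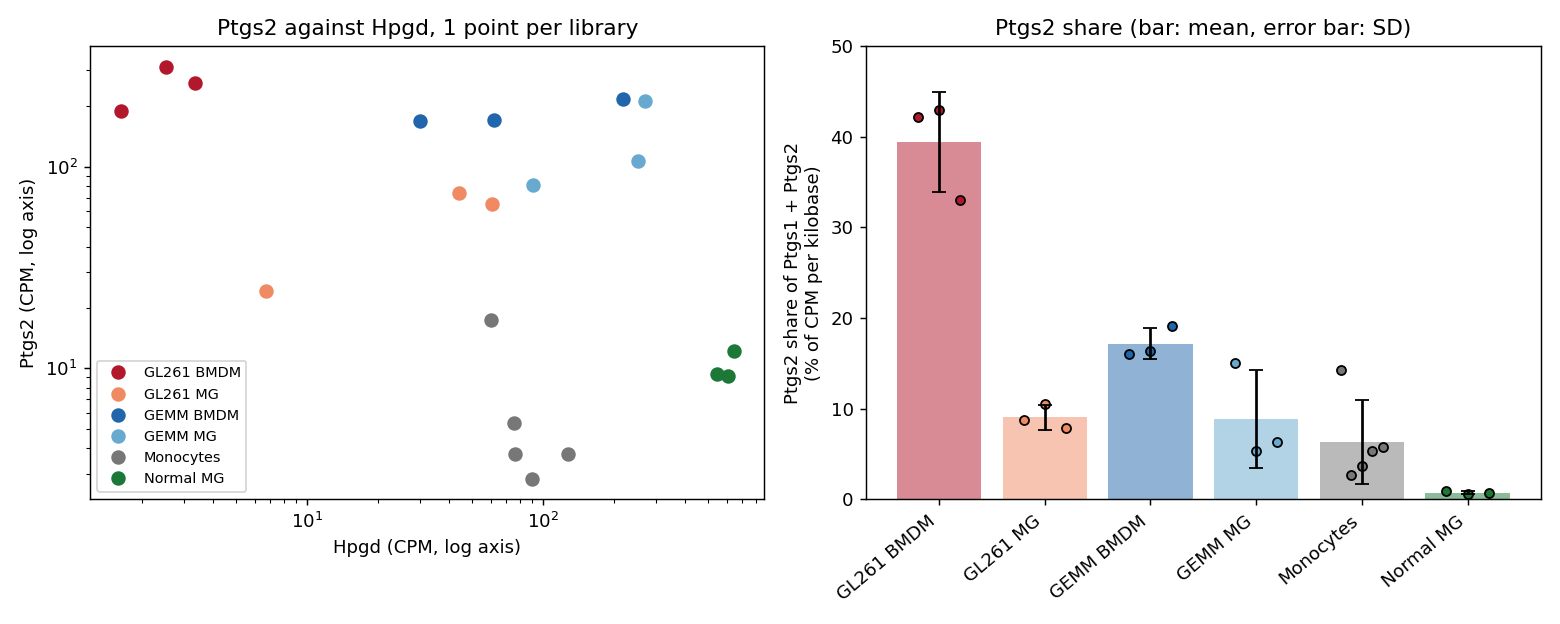
Left, Ptgs2 against Hpgd in CPM (both log axes), 1 point per library; right, Ptgs2 as a percentage of summed Ptgs1 and Ptgs2 CPM per kilobase (bar: mean, error bar: SD, points: libraries). GL261 BMDM lie at the upper left, with Ptgs2 of 188 CPM or more and Hpgd of 3.35 CPM or less, and normal MG at the lower right.

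Alox5 encodes 5-lipoxygenase (chr6:116410077-116461178, minus strand), which opens the leukotriene branch. GL261 BMDM were at 1.31, 2.63 and 6.46 CPM and GL261 MG at 15.6, 18.1 and 1.42 CPM. It was at 86.0, 31.9 and 8.31 CPM in GEMM BMDM and 19.5, 19.95 and 19.7 CPM in GEMM MG. Monocytes had 174, 112, 120.2, 50.3 and 57.2 CPM and normal MG 56.8, 60.1 and 78.5 CPM. All GL261 libraries were below all normal MG and monocyte libraries, GEMM MG were close to 20 CPM throughout, and GEMM BMDM spanned 8.31 to 86.0 CPM. Alox5 was 5.58-fold lower (log2 -2.48 ± 0.78, edgeR adjusted p = 0.0117) in GL261 MG than in normal MG, 29.6-fold lower (log2 -4.89 ± 0.86, edgeR adjusted p = 9.39e-05) in GL261 BMDM than in monocytes and 12.04-fold lower (log2 -3.59 ± 0.84, edgeR adjusted p = 0.00628) in GL261 BMDM than in GEMM BMDM. The last call moved with single libraries: it was log2 -2.53 without GEMM BMDM 68702 (edgeR adjusted p = 0.0393), log2 -4.41 without GL261 BMDM 80769 (adjusted p = 0.00795), and was lost with only those groups in the fit (log2 -3.57, adjusted p = 0.0636). Against monocytes, the GL261 value was log2 -5.71 without 80769. GEMM BMDM against monocytes did not pass (log2 -1.30 ± 0.69, edgeR adjusted p = 0.119), but passed without 68702 (log2 -2.36, edgeR adjusted p = 0.0182). GEMM MG against normal MG did not pass (log2 -1.72 ± 0.76, edgeR adjusted p = 0.0744), although the libraries did not overlap. It passed as lower with only those libraries in the fit (log2 -1.70, edgeR adjusted p = 8.19e-06). Within GL261 tumours the ratio of BMDM to MG was 0.0838 and 0.145 in 80766 and 80767 but 4.54 in 80769, and the GL261 lineage difference passed only without the MG library of 80769 (log2 -2.26, edgeR adjusted p = 0.0423, against log2 -1.74 ± 0.81, edgeR adjusted p = 0.145 with it).

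Neutrophils and eosinophils are rich in Alox5 and Lta4h. The monocyte libraries with the least Alox5 and Lta4h, 64820 and 64821, had the least neutrophil marker RNA (1496 and 1505 CPM, against 8358 CPM or more in the other 3) and the most Rn45s, and in GEMM BMDM the Alox5 order of the libraries, 86.0, 31.9 and 8.31 CPM, was that of the neutrophil sums, 2015, 117 and 14.8 CPM. Normal MG, at 56.8 CPM of Alox5 or more, had all 10 neutrophil markers under 1 CPM. The part of granulocyte RNA in the monocyte and GEMM BMDM values was not tested.

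Alox5ap encodes the 5-lipoxygenase-activating protein (chr5:149264767-149288153, plus strand), a membrane protein that presents arachidonic acid to 5-lipoxygenase. GL261 BMDM were at 81.7, 116 and 79.5 CPM, GL261 MG at 71.1, 69.8 and 40.2, GEMM BMDM at 126, 131 and 120.1 and GEMM MG at 87.6, 114 and 128 CPM. Monocytes had 987, 1077, 1016, 1051 and 1018 CPM. Normal MG had 177, 185 and 196 CPM. The monocytes, narrow in range, were above all others, normal MG were above all tumour libraries, and GL261 MG were below all other groups, though without TMM scaling GL261 MG overlapped GL261 BMDM and GEMM MG. Alox5ap was 11.1-fold lower (log2 -3.48 ± 0.20, edgeR adjusted p = 3.06e-10) in GL261 BMDM and 8.21-fold lower (log2 -3.04 ± 0.20, edgeR adjusted p = 1.23e-09) in GEMM BMDM than in monocytes. It was 3.08-fold lower (log2 -1.62 ± 0.20, edgeR adjusted p = 2.39e-06) in GL261 MG and 1.69-fold lower (log2 -0.76 ± 0.19, edgeR adjusted p = 0.0042) in GEMM MG than in normal MG, and 1.82-fold lower (log2 -0.86 ± 0.20, edgeR adjusted p = 0.00253) in GL261 MG than in GEMM MG. GL261 BMDM against GL261 MG gave 1.53-fold higher (log2 0.61 ± 0.19, edgeR adjusted p = 0.0362), a call lost in 5 alternatives, among them without BMDM 80767 (log2 0.42, adjusted p = 0.171), without MG 80769 (log2 0.40, adjusted p = 0.113) and with only those groups in the fit (adjusted p = 0.223).

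Lta4h encodes leukotriene A4 hydrolase (chr10:93453411-93484875, plus strand), which makes leukotriene B4. GL261 BMDM were at 71.7, 66.4 and 82.8 CPM and GL261 MG at 53.9, 59.1 and 91.6 CPM. GEMM BMDM had 200.3, 186 and 148 CPM and GEMM MG 75.1, 78.5 and 75.0 CPM. Monocytes had 78.5, 131, 133, 60.4 and 57.7 CPM and normal MG 66.3, 65.9 and 60.8 CPM. Every GEMM BMDM library was above every library of the other 5 groups, and GEMM MG lay above normal MG without overlap, as 62.2% of all genes did not overlap there. That difference between GEMM MG and normal MG did not pass (log2 0.24 ± 0.27, edgeR adjusted p = 0.491). It passed with only those libraries in the fit (log2 0.27, edgeR adjusted p = 0.0373). Lta4h was 2.33-fold higher (log2 1.22 ± 0.28, edgeR adjusted p = 0.00404) in GEMM BMDM than in GEMM MG, by 1.97 to 2.67 times in the 3 tumours. It was 1.93-fold higher (log2 0.95 ± 0.24, edgeR adjusted p = 0.00269) in GEMM BMDM than in monocytes, and 2.41-fold lower (log2 -1.27 ± 0.28, edgeR adjusted p = 0.00381) in GL261 BMDM than in GEMM BMDM. The GL261 lineage difference did not pass (log2 0.11 ± 0.27, edgeR adjusted p = 0.817). The difference between the lineage differences did not pass either (log2 -1.11 ± 0.39, edgeR adjusted p = 0.165), but passed with tumour as a replicate block (log2 -1.07, adjusted p = 0.0426). GL261 BMDM against monocytes did not pass (log2 -0.32 ± 0.25, edgeR adjusted p = 0.265), and was lower when both Rn45s-rich monocyte libraries were left out (log2 -0.63, edgeR adjusted p = 0.0163), a choice made after seeing the data.

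Ltc4s encodes leukotriene C4 synthase (chr11:50236461-50238616, minus strand), which commits leukotriene A4 to the cysteinyl leukotrienes. It was at 37.2, 22.1 and 34.0 CPM in GL261 BMDM and 63.5, 50.7 and 48.0 CPM in GL261 MG. GEMM BMDM had 38.5, 85.4 and 40.8 CPM and GEMM MG 99.2, 150.0 and 123 CPM. Monocytes were at 4.02, 1.78, 2.42, 3.30 and 2.81 CPM and normal MG at 144, 162 and 169.9 CPM. Monocytes were below every other library, GEMM MG overlapped normal MG, and in 6 of 6 tumours BMDM had less than MG, by ratios of 0.331 to 0.708. Ltc4s was 10.8-fold higher (log2 3.43 ± 0.28, edgeR adjusted p = 1.6e-08) in GL261 BMDM and 19.1-fold higher (log2 4.26 ± 0.28, edgeR adjusted p = 1.53e-09) in GEMM BMDM than in monocytes. It was 2.93-fold lower (log2 -1.55 ± 0.28, edgeR adjusted p = 0.000135) in GL261 MG than in normal MG, where GEMM MG gave log2 -0.35 ± 0.27, edgeR adjusted p = 0.312, and 2.30-fold lower (log2 -1.20 ± 0.28, edgeR adjusted p = 0.00293) in GL261 MG than in GEMM MG. Between lineages it was 2.26-fold lower (log2 -1.18 ± 0.28, edgeR adjusted p = 0.00524) in GEMM BMDM than in GEMM MG, a call lost with only those groups in the fit (edgeR adjusted p = 0.0535). In GL261 the lineage difference did not pass (log2 -0.80 ± 0.28, edgeR adjusted p = 0.0541), and passed with tumour as a replicate block (log2 -0.82, adjusted p = 0.0187). It also passed in DESeq2 (log2 -0.84, adjusted p = 0.0289) and in edgeR with RLE scaling (log2 -0.84, adjusted p = 0.0451). GL261 BMDM were 1.77-fold lower (log2 -0.82 ± 0.28, edgeR adjusted p = 0.0439) than GEMM BMDM, a value that rests on GEMM BMDM BB30101 (log2 -0.35 and adjusted p = 0.345 without it). An antisense transcript overlaps 268 of the 1014 exon bases of Ltc4s, and others overlap Ptgs1 (148 bases), Tbxas1 (144) and Alox5ap (189); reads of such partners may be counted here, since the sources do not say whether counting used strand.

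Ltc4s and Lta4h draw on the same leukotriene A4. Per kilobase, Ltc4s was 71.2 ± 4.56% of their sum in GL261 BMDM and 82.4 ± 5.98% in GL261 MG, against 63.2 ± 9.94% in GEMM BMDM and 90.5 ± 1.61% in GEMM MG, 17.7 ± 8.24% in monocytes and 93.6 ± 0.754% in normal MG. These shares rest on exon lengths of 1014 bases for Ltc4s and 6102 for Lta4h. In CPM, Lta4h was above Ltc4s in GL261 BMDM (73.6 against 31.1), GL261 MG (68.2 against 54.1), GEMM BMDM (178 against 54.9) and monocytes (92.0 against 2.87). It was below Ltc4s in GEMM MG (76.2 against 124) and normal MG (64.3 against 158). The 5 monocyte libraries (24.7% or less) were below all others (53.6% or more), and GEMM BMDM (73.5% or less) were below GEMM MG (88.8% or more).

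Compared per kilobase of exon, the leading enzyme RNA differed by group. Ptgs1 led in the 4 tumour groups, at 84.1 ± 9.47 CPM per kilobase in GL261 BMDM, 117 ± 54.1 in GL261 MG, 197 ± 45.8 for GEMM BMDM and 307 ± 44.7 for GEMM MG. Alox5ap led in monocytes at 725 ± 24.7 CPM per kilobase, with Hpgd next at 51.0 ± 15.3. In normal MG, Hpgd (357 ± 28.4 CPM per kilobase) and Ptgs1 (301 ± 28.9) led, with the lowest Hpgd library at 326 and the highest Ptgs1 library at 329. Without division by length, normal MG had 1169 CPM of Ptgs1, 710 of Hpgds and 600 of Hpgd, and monocytes had more Alox5 (103 CPM) than Hpgd (85.9 CPM).

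By rank within a group, Ptgs2 was number 3 of the 10 enzymes in GL261 BMDM, at 55.4 ± 13.7 CPM per kilobase, and number 9 in normal MG, at 2.23 ± 0.371. Ptges had the lowest level per kilobase in every group except monocytes, where Hpgds did (0.460 ± 0.358 CPM per kilobase).

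Across the 20 libraries, log2 CPM of Ptgs1 and Hpgds ran together (Pearson r = 0.94, and 0.88 over the 12 tumour libraries), while Ptgs2 and Hpgd did not (r = -0.44 and -0.11). These values describe libraries that fall into 6 groups, and no test was made. The genes most like each member over the 20 libraries, by the same measure, were Slc7a8 (r = 0.99) and Dtx4 (r = 0.99) for Ptgs1, Csf2rb2 (r = 0.96) and Galnt7 (r = 0.95) for Ptgs2 and Rnf180 (r = 0.99) and Osbpl1a (r = 0.99) for Hpgds. For Hpgd they were Mef2c (r = 0.94) and Cx3cr1 (r = 0.94), and Cx3cr1 is a microglia marker. Alox5ap was most like Cdc42ep3 (r = 0.98) and Herc4 (r = 0.97), and Ltc4s most like Atp5s (r = 0.98) and Pecr (r = 0.98). Within the 12 tumour libraries the closest were Tlr1 for Ptgs2 (r = 0.95), Lyl1 for Hpgd (r = 0.98) and Arhgap18 for Lta4h (r = 0.96).

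Receptors for these lipids were described from lists of related genes. Of the prostanoid receptors, 3 were higher and 1 lower of 8 tested in GL261 MG and 3 were higher and 1 lower of 8 tested in GEMM MG against normal MG, with median log2 fold changes of 1.53 and 2.15, beside the shares and medians of all genes given above. Ptger2 and Ptger4, receptors of prostaglandin E2 that raise cyclic AMP, rose in both. Ptger2 averaged 1.50 ± 0.938 CPM in GL261 MG, 1.69 ± 0.908 in GEMM MG and 0.156 ± 0.0493 in normal MG (log2 3.24 ± 0.54, edgeR adjusted p = 7.03e-05 for GL261; log2 3.42 ± 0.54, edgeR adjusted p = 7.26e-05 for GEMM). Ptger4 averaged 38.1 ± 25.6 CPM in GL261 MG, 62.5 ± 8.41 in GEMM MG and 11.04 ± 1.60 in normal MG (log2 1.78 ± 0.45, edgeR adjusted p = 0.00245 for GL261; log2 2.501 ± 0.46, edgeR adjusted p = 0.000282 for GEMM). Monocytes had 22.3 ± 8.10 CPM of Ptger2 and 45.2 ± 15.0 of Ptger4. Sums of monocyte or BMDM markers, given above, were higher in both tumour MG groups than in normal MG. The part of such cells in these receptor values was not tested. Ptger3, the prostaglandin E2 receptor that lowers cyclic AMP, fell to 0.438 ± 0.211 CPM in GL261 MG and 0.224 ± 0.207 in GEMM MG, against 13.3 ± 0.237 in normal MG (log2 -4.91 ± 0.85, edgeR adjusted p = 9.94e-05 for GL261; log2 -5.77 ± 0.90, edgeR adjusted p = 6.2e-05 for GEMM). Between lineages, 3 were higher and 0 lower of 8 tested in GEMM BMDM, against 12.7% and 8.1% of all genes. In GL261 BMDM 1 was higher and 0 lower of 8 tested, against 10.7% and 6.81% of all genes. Ptger2 was higher in BMDM of both (log2 1.83 ± 0.43, edgeR adjusted p = 0.00527 in GEMM, and log2 2.31 ± 0.44, edgeR adjusted p = 0.00134 in GL261). Against monocytes, 0 were higher and 4 lower of 8 tested in GL261 BMDM, against 34.1% and 28.9% of all genes. In GEMM BMDM 1 was higher and 5 lower of 8 tested, against 31.6% and 25.7% of all genes. Ptgir, the prostacyclin receptor, was at 1.38 ± 1.47 CPM in GL261 BMDM and 1.88 ± 0.480 in GEMM BMDM, against 161 ± 13.3 in monocytes (log2 -6.84 ± 0.53, edgeR adjusted p = 2.52e-08 for GL261; log2 -6.42 ± 0.51, edgeR adjusted p = 4.25e-08 for GEMM).

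Receptors of leukotrienes and lipoxins were higher in BMDM than in MG for 5 of 9 tested in GEMM and 4 of 9 in GL261, none lower, against 12.7% and 10.7% of all genes higher, with median log2 fold changes of 2.00 and 1.94. Ltb4r1, the high-affinity leukotriene B4 receptor, averaged 11.1 ± 6.42 CPM in GL261 BMDM, against 1.05 ± 1.14 in GL261 MG (log2 3.37 ± 0.69, edgeR adjusted p = 0.00244), and 13.4 ± 7.83 in GEMM BMDM and 0.550 ± 0.495 in GEMM MG (log2 4.52 ± 0.74, edgeR adjusted p = 0.000293). Gpr18, a receptor for lipid mediators, was higher in BMDM of both models (log2 2.47 ± 0.43, edgeR adjusted p = 0.000668 in GL261; log2 3.28 ± 0.43, edgeR adjusted p = 3.73e-05 in GEMM). Cysltr1, the cysteinyl leukotriene receptor, averaged 76.3 ± 14.3 CPM in GL261 BMDM, 30.2 ± 7.75 in GL261 MG, 149 ± 13.7 in GEMM BMDM, 78.4 ± 14.5 in GEMM MG, 34.6 ± 6.33 in monocytes and 182 ± 11.4 in normal MG. It was lower in tumour MG than in normal MG (log2 -2.59 ± 0.22, edgeR adjusted p = 4.41e-08 for GL261; log2 -1.22 ± 0.21, edgeR adjusted p = 0.000138 for GEMM). Dendritic cell markers moved with the lineage comparison, at 116 to 637 CPM in GL261 BMDM against 23.4 to 68.6 CPM in GL261 MG, and 760.3 to 1869 CPM in GEMM BMDM against 30.0 to 114 CPM in GEMM MG. In tumour MG against normal MG, 4 were higher and 1 lower of 9 tested in GL261 and 2 were higher and 1 lower of 9 tested in GEMM, against 30.6% and 23% of all genes higher. Gpr17, also expressed by oligodendrocyte precursors, passed in both, averaging 31.3 ± 12.3 CPM in GL261 MG, 4.08 ± 2.56 in GEMM MG and 0.0839 ± 0.0732 in normal MG (edgeR adjusted p = 3.72e-06 for GL261; edgeR adjusted p = 0.000352 for GEMM). Markers of oligodendrocyte precursors or glioma cells summed to 549 to 975 CPM in GL261 MG, 279 to 344 in GEMM MG and 77.7 to 92.9 in normal MG. The part of these cells in the receptor values was not tested.

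Of the other lipoxygenase and leukotriene enzymes, 6 were higher and 0 lower of 13 tested in GEMM BMDM against GEMM MG and 3 were higher and 1 lower of 13 tested in GL261 BMDM against GL261 MG, where 12.7% and 10.7% of all genes were higher. Dpep2, a dipeptidase that converts leukotriene D4 to leukotriene E4, averaged 92.6 ± 33.7 CPM in GL261 BMDM, against 10.3 ± 5.67 in GL261 MG (log2 3.17 ± 0.43, edgeR adjusted p = 7.58e-05), and 16.4 ± 3.43 in GEMM BMDM and 0.871 ± 0.740 in GEMM MG (log2 4.13 ± 0.49, edgeR adjusted p = 1.18e-05). Ggt5, which converts leukotriene C4 to leukotriene D4, fell to 7.34 ± 3.64 CPM in GL261 MG and 13.2 ± 2.70 in GEMM MG, against 44.8 ± 2.46 in normal MG (log2 -2.61 ± 0.45, edgeR adjusted p = 9.56e-05 for GL261; log2 -1.76 ± 0.44, edgeR adjusted p = 0.00337 for GEMM). Alox12, a 12-lipoxygenase of platelets, was at 0.0168 ± 0.0291 CPM in GL261 BMDM and 0.351 ± 0.312 in GEMM BMDM, against 349 ± 96.9 in monocytes, the libraries in which platelet markers were highest. On a list of other prostanoid synthases, 3 were higher and 1 lower of 9 tested in GL261 MG against normal MG. In GEMM MG against normal MG, 2 were higher and 1 lower of 9 tested. Of all genes, 30.6% were higher for GL261 and 23% for GEMM. The list also holds Gsr, a glutathione reductase and not a prostanoid synthase, so the counts include it. Gsr passed as higher in both, at 77.4 CPM in GL261 MG, 67.9 in GEMM MG and 26.1 in normal MG. Ptgds, the lipocalin-type prostaglandin D synthase, averaged 2.83 ± 2.76 CPM in GL261 MG, 0.358 ± 0.310 in GEMM MG and 2.85 ± 0.472 in normal MG (log2 -2.92 ± 0.85, edgeR adjusted p = 0.00943 for GEMM), and Ptges3, the cytosolic prostaglandin E synthase, averaged 101 ± 5.01 CPM in GL261 MG and 73.7 ± 13.4 in normal MG (log2 0.45 ± 0.17, edgeR adjusted p = 0.033).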

How the data were processed

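RNA was sequenced in 20 libraries, and the deposited table holds raw counts per gene symbol. Per the submitters' processing notes, which give no order or role, CASAVA 1.8, STAR 2.5.0e, HTSeq, DESeq2 and the mm10 build were used by the authors. Neither the annotation nor the strandedness used in counting is stated in the labels.

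Libraries were grouped by the labels. After filterByExpr at a minimum count of 10 and a minimum total of 15, 15363 of 23329 symbols were tested. Counts were scaled by TMM and fitted with edgeR 4.0.16 (R 4.3.3, robust quasi-likelihood, 1 model of all 20 libraries), with Benjamini-Hochberg adjustment over all genes tested and a threshold of 0.05. SEs are the log2 fold change divided by the square root of the F statistic. Levels per kilobase divide CPM by the union exon length in GENCODE vM21 (GRCm38). This length takes in every annotated exon of a gene, from 1014 bases for Ltc4s to 9094 for Tbxas1, and can exceed that of the RNA made. Ranks and shares between enzymes depend on this choice. The members and gene lists were chosen with earlier results of these data known. The genes most like a member were the 2 with the highest Pearson r of log2 CPM, and from each list up to 3 genes that passed, those with the smallest p in a comparison, could be named. Ptges3 and Pla2g4a were named after their values were seen.

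The series' design text describes matched MG and BMDM of each tumour. Deviations from group means correlated at r = 0.1963 to 0.3932 between libraries of the same tumour and at -0.3351 to 0.07972 between libraries of different tumours, so tumour was used as a block in an alternative. Replicates differed beyond sampling noise (chi-square per degree of freedom at least 3.20), so no library was counted as a duplicate. The closest pairs were monocytes 64818 with 64819 (3.20) and 64820 with 64821 (4.28). All other pairs of a group were at 19.1 or more. This value cannot tell whether the close monocyte pairs shared animals, pools or preparation, and the monocyte libraries were fitted as 5 separate samples. The test was checked on simulated counts with known changes, for GEMM BMDM against GEMM MG, GL261 MG against normal MG and GEMM BMDM against monocytes. It recovered 34 to 38% of 2-fold and 60 to 71% of 4-fold changes, with 1 to 5 false calls among 99 to 114. In each, 200 of the 15363 genes, drawn at random, were changed, fewer than passed in any of these comparisons of the real data. Differences of these sizes can therefore fail to pass in that setting. The rates do not measure how often changes of these enzymes would be found. Alternatives were DESeq2 1.42.0, RLE scaling, no filter, fits of only the groups compared, the block, Rn45s left out, unscaled CPM, and each library left out.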

Additional observations from a re-analysis of the deposited data

Results flagged for a closer look

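In monocytes, the group of 5 libraries, a single library stood far from the rest for 4 of the 10 enzymes. Chance alone sets apart about 1 in 20 groups tested in this way. Ptgs1 was at 52.1 CPM in 64821, where the next library had 79.8 CPM. Ptgs2 was at 17.3 CPM in 64817, where the next had 5.36 CPM. Ptges was at 5.10 CPM in 64819, where the next had 3.50 CPM. Hpgds was at 6.93 CPM in 64821, where the next had 2.83 CPM. Groups of 3 libraries are too small for this rule and were not examined by it.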

How the results depend on the processing

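Of 100 tests of an enzyme, 50 passed, 43 of these passed under every alternative run and 7 were lost under at least 1. Over 1240 recomputed fold changes, 1171 kept their direction and their side of the threshold, 17 lost a call, 34 gained one and 18 changed sign, of which 0 passed in either fit. Under the replicate block, Ptges turned to log2 0.34 in GL261 BMDM against GL261 MG and to 0.61 in the difference between lineage differences. The other changes of sign came on leaving out 1 library, which gave these ranges of log2 values. That of Hpgd ran from -0.90 to 0.71 in GEMM BMDM against monocytes. That of Hpgds ran from -0.30 to 0.28 in GL261 BMDM against GL261 MG. That of Lta4h ran from -0.035 to 0.40 in GL261 BMDM against GL261 MG and -0.24 to 0.23 in GL261 MG against normal MG. That of Ptges ran from -0.56 to 0.11 in GL261 BMDM against GEMM BMDM, -0.51 to 0.025 in GEMM BMDM against GEMM MG, -1.25 to 1.53 in GL261 BMDM against GL261 MG, -0.88 to 1.81 in the difference between lineage differences, -0.58 to 2.59 in GL261 MG against normal MG and -1.96 to 0.76 in GL261 MG against GEMM MG. That of Ptgs1 ran from -0.070 to 0.14 in GEMM MG against normal MG and -0.049 to 0.53 in the difference between lineage differences. The 7 differences whose call was lost were Ptges in both BMDM against monocytes, Alox5ap in GL261 BMDM against GL261 MG, Ltc4s in GEMM BMDM against GEMM MG, Alox5 and Ltc4s in GL261 BMDM against GEMM BMDM, and Hpgd in GL261 MG against GEMM MG (edgeR adjusted p = 0.0545 with only those groups in the fit). For the difference between lineage differences, 0 enzymes and 250 genes passed, and the counts were 1 and 808 in DESeq2, 156 genes with no filter, 23 with only the groups compared, 23 with the 12 tumour libraries and no replicate block, 1 enzyme (Lta4h) with the replicate block, and 0 to 1 enzymes and 99 to 400 genes on leaving out 1 library. With only the groups compared, 6 enzymes instead of 2 passed in GEMM MG against normal MG (Hpgds, Hpgd, Alox5 and Lta4h besides), 3 instead of 5 in GL261 BMDM against GEMM BMDM (1705 of all genes instead of 3027), and 782 genes instead of 2692 in GL261 BMDM against GL261 MG. Leaving out 1 library gave 1673 to 2688 genes there, lowest without GL261 BMDM 80766, and 2064 to 2940 instead of 3194 in GEMM BMDM against GEMM MG, lowest without GEMM BMDM BB30101. DESeq2 also called Ptgs1 lower in GEMM BMDM than in GEMM MG (adjusted p = 0.0417) and Ptgs2 lower in GL261 MG than in GEMM MG (adjusted p = 0.0382). Ptges passed as higher in GL261 MG than in normal MG without GL261 MG 80769 (edgeR adjusted p = 0.0177) or normal MG 67574 (edgeR adjusted p = 0.0387), and turned direction without GL261 MG 80766. The replicate block changed 3 calls of the enzymes, Hpgds, Ltc4s and Lta4h as given above, and no other. The causes of these changes were not tested. Depth limits Ptges, and Hpgds in monocytes, which rest on few reads. Without scaling, 5 of 60 group means moved by more than their SD.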

Other observations

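Of the phospholipases listed, Pla2g7, which encodes a secreted enzyme that degrades platelet-activating factor, was higher in every tumour group than in its counterpart from outside tumours. It averaged 1163 ± 295 CPM in GL261 BMDM, 194 ± 41.5 in GL261 MG, 1214 ± 620.0 for GEMM BMDM and 188 ± 97.7 for GEMM MG, with 334 ± 103 in monocytes and 19.1 ± 9.64 in normal MG. Over normal MG it was 10.2-fold higher (log2 3.34 ± 0.50, edgeR adjusted p = 2.26e-05) in GL261 MG and 9.85-fold higher (log2 3.30 ± 0.50, edgeR adjusted p = 4.9e-05) in GEMM MG. It was also higher in BMDM than in MG of both models (log2 2.58 ± 0.49, edgeR adjusted p = 0.00123 in GL261; log2 2.69 ± 0.49, edgeR adjusted p = 0.000712 in GEMM). Pla2g4a, the cytosolic phospholipase A2 that frees arachidonic acid, averaged 131 ± 69.9 CPM in GL261 BMDM and 119 ± 18.9 in GEMM BMDM, against 37.1 ± 2.82 in monocytes (log2 1.82 ± 0.32, edgeR adjusted p = 8.51e-05 for GL261; log2 1.67 ± 0.32, edgeR adjusted p = 0.000221 for GEMM). Pla2g5, a secreted phospholipase A2, averaged 8.86 ± 4.52 CPM in GL261 MG, 0.0358 ± 0.0314 in GEMM MG and 0.0937 ± 0.0355 in normal MG, and passed as higher in GL261 MG than in GEMM MG (edgeR adjusted p = 9.36e-06), where reads were few in GEMM MG. Markers of other cells moved with it and their part was not tested: oligodendrocyte precursor or glioma cell markers summed to 549 to 975 CPM in GL261 MG and 279 to 344 in GEMM MG, and pericyte or fibroblast markers to 24.3 to 134 and 17.0 to 31.3 CPM. Lpcat3, which returns arachidonic acid to phospholipids, averaged 59.9 ± 12.5 CPM in GL261 MG, 183 ± 2.00 in GEMM MG and 179 ± 19.3 in normal MG, and was 3.06-fold lower (log2 -1.61 ± 0.16, edgeR adjusted p = 3.32e-06) in GL261 MG than in GEMM MG. The list of 18 phospholipase and lipase genes also holds genes of other classes (Lpcat2, Lpcat3, Acsl4 and Faah). Of these 18, 7 were higher and 8 lower in GL261 MG than in normal MG, against 30.6% and 27.2% of all genes. In GEMM MG 1 was higher and 1 lower, against 23% and 20.9% of all genes. Medians over the 18 were log2 -0.69 for GL261 and -0.10 for GEMM.

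Among 7 genes of prostanoid transport and breakdown, Cyp4f18, which hydroxylates leukotriene B4 in mouse neutrophils, averaged 92.6 ± 28.4 CPM in GL261 MG and 149 ± 51.2 in GEMM MG, against 2.07 ± 0.853 in normal MG (log2 5.48 ± 0.48, edgeR adjusted p = 7.05e-08 for GL261; log2 6.16 ± 0.49, edgeR adjusted p = 6.22e-08 for GEMM). Monocytes had 571 ± 229 CPM and BMDM were higher than MG in both models (log2 2.79 ± 0.41, edgeR adjusted p = 0.000169 in GL261; log2 2.33 ± 0.40, edgeR adjusted p = 0.000483 in GEMM). The part of other cells in the MG values was not tested, and microglia marker sums, given above, were lower in both tumour MG groups than in normal MG. Ptgr1, which reduces prostaglandin metabolites and inactivates leukotriene B4, was 1.93-fold higher (log2 0.95 ± 0.22, edgeR adjusted p = 0.00138) in GL261 MG and 3.36-fold higher (log2 1.75 ± 0.22, edgeR adjusted p = 8.55e-06) in GEMM MG than in normal MG.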
